A study of Mus musculus with 60 samples.

Results

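The 36 genes described here encode the core machinery of macroautophagy and 4 of its cargo receptors. They were chosen by symbol, from a list of autophagy genes, and all 36 were found among the 24508 genes of the expression table. RNA was sequenced from the hippocampus of 30-week-old mice on a mixed CBA and C57BL/6 background, with 9 wild-type (WT) and 9 R6/1 libraries that the labels describe as independent biological replicates. The R6/1 line models Huntington's disease through a transgene that expresses only the start of human huntingtin, the first exon with its expanded CAG repeat, from the human promoter. The WT mice carry no transgene, and the labels name no treatment of either group. The same tissue was also profiled by chromatin immunoprecipitation of lamin B1, a protein of the nuclear envelope, from pools of 5 mice. The comparison of R6/1 with WT asks how this set of genes is expressed in the hippocampus of the model.

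Macroautophagy encloses cytoplasm in a double membrane, the autophagosome, and delivers it to the lysosome. The ULK kinase complex starts the process when mTORC1 signalling falls, a lipid kinase complex built on Vps34 and Beclin 1 marks the membrane, and lipid transfer proteins and WIPI proteins extend it. A pair of ubiquitin-like conjugation systems then attaches ATG8 proteins (the LC3 and GABARAP families) to the membrane, where cargo receptors such as p62 bind them together with ubiquitinated cargo. Neurons depend on this route to clear aggregated protein, and mutant huntingtin is one of its known substrates.

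Expression values were RPKM, read counts scaled by gene length and by a factor for each library. That factor was not simply the library's number of reads on genes, which ran from 12299434 to 16736544. Differences are given on the log2(RPKM + 0.5) scale as R6/1 minus WT, which understates changes of low genes, and were tested with limma across the 14446 genes averaging 0.5 RPKM or more. A gene is said to have risen or fallen where the limma p-value adjusted by the Benjamini-Hochberg method was under 0.05. The mouse huntingtin gene itself, Htt, averaged 17.6 RPKM in WT and 18.3 RPKM in R6/1 (log2 difference 0.05, limma adjusted p = 0.474); these mouse reads do not check for the human transgene. Markers of neurons were lower in R6/1. All 6 general hippocampal neuron markers fell, with a summed level of 2605 to 3130 RPKM in WT and 1653 to 1923 RPKM in R6/1, and all 6 dentate granule cell markers fell, from 72.5–108.9 RPKM to 42.4–53.3 RPKM. Of the other neuron lists, 5 of 6 CA1 markers fell and 1 rose (161.6 to 229.7 RPKM in WT, 124.2 to 140.6 RPKM in R6/1), and 4 of 5 CA3 (47.05 to 83.9 RPKM, 29.4 to 39.9 RPKM) and 6 of 7 inhibitory neuron markers (387.1 to 484.4 RPKM, 232 to 297.4 RPKM) fell. Of the glial lists, 5 of 7 astrocyte markers (697 to 909.9 RPKM in WT, 610.6 to 756.5 RPKM in R6/1), 3 of 8 microglial markers (158.5 to 249.6 RPKM, 127.2 to 194.7 RPKM) and 5 of 7 oligodendrocyte markers (1023 to 1315 RPKM, 631.8 to 1086 RPKM) fell. Of 6 endothelial markers 1 fell (52.4 to 88.95 RPKM, 61.2 to 89.9 RPKM). No marker was at 0 in any library. Choroid plexus markers varied within both genotypes, from 26 to 1078 RPKM in WT and from 39.1 to 1745 RPKM in R6/1, and none of the 7 passed the threshold. In bulk tissue, fewer cells of a type and less RNA per cell cannot be told apart, and the part of these shifts in the results below was not tested. With the mean log2(RPKM + 0.5) of the 7 choroid plexus markers as a covariate, 15 of the 36 autophagy genes were higher and 5 lower. The limma fit with that covariate called 7147 of all 14446 genes, 51.2% of them higher.

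All 36 autophagy genes were expressed above the filter. Of these, 14 rose in R6/1, 5 fell and 17 did not pass the threshold. Called genes made up 52.8% of the 36, against 48.3% of all genes tested, so the share that changed was near the background. The division by direction was 38.9% higher and 13.9% lower, against 24.8% higher and 23.5% lower among all tested genes. The direction count depends on scaling. In own-total scaling, each library is scaled by its own number of reads on genes. After it, 23 of the 36 were called higher, 3 lower and the rest were not called. Of the 14449 genes tested under that scaling, 7638 were called. Of those calls 66.9% were higher, against 51.4% of calls here. These percentages are shares of called genes, so they compare with 23 higher against 3 lower, not with 23 of 36. Changes were small. Their median difference was 0.08 on the log2 scale, against 0.0036 over all genes tested, and their median absolute difference was 0.13, against 0.16. Among the 19 called genes, 10 differed by under 0.2 on the log2 scale, and 2, Sqstm1 and Wipi1, differed by more than 0.4. In 7 of the 36 genes no R6/1 library overlapped any WT library: Ulk1, Pik3c3, Ambra1, Sqstm1 and Calcoco1 were higher throughout, and Wipi1 and Atg10 lower throughout. The same absence of overlap was met by 11.9% of all genes tested (5.5% higher, 6.38% lower). The authors' deposited table of DESeq2 results called 14 higher and 5 lower among the 36, and 40.4% of the 18395 genes to which it gives an adjusted p.

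**Figure D1:**
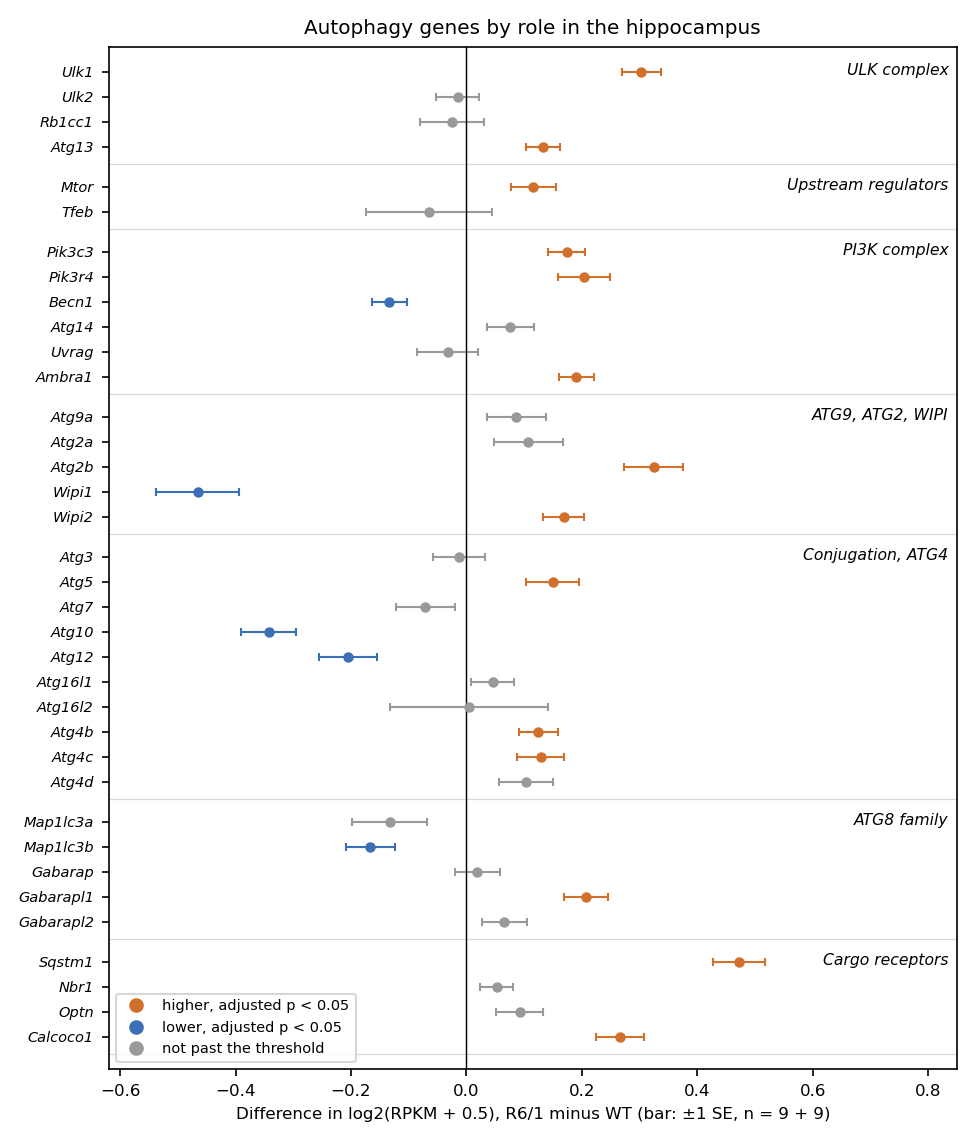
Difference in log2(RPKM + 0.5), R6/1 minus WT, for each of the 36 autophagy genes, grouped by role, with the standard error from limma (9 libraries per genotype). Sqstm1 lies farthest to the right at 0.47 and Wipi1 farthest to the left at -0.47, and most genes lie close to 0.

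Levels spanned a wide range in WT hippocampus. The ATG8 genes and Sqstm1 formed the upper end, with 6 genes above 90 RPKM, 29 lay between 5 and 40 RPKM, and 1, Tfeb, was under 5 RPKM at a mean of 2.95 RPKM. The median of the 36 WT means was 16.4 RPKM, against 8.27 RPKM for all genes tested. Spread between WT libraries was a median of 6.43% of the mean, lowest for Atg13 at 3.38% and highest for Atg16l2 at 28.2%. The smallest read counts behind any value were 80 reads for Tfeb, 82 reads for Atg10 and 89 reads for Atg16l2, each in 1 library.

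Promoter windows of the genes on which the results turn are printed here. TFEB, the transcription factor that drives lysosome and autophagy genes, binds the E-box letters CACGTG within longer sites, and its own mRNA is among the 36. Windows of 250 bases before to 50 bases after the start were taken from RefSeq on GRCm38.p6 and matched 30 of the 36 symbols. The genes without a window are Rb1cc1, Pik3c3, Becn1, Atg12, Atg16l1 and Map1lc3a. The first 3 windows are those of the gene with the largest rise (chr11:50210771-50211070, minus strand), the gene with the largest fall (chr11:109611340-109611639, minus strand) and the ATG8 gene that rose (chr6:129532942-129533241, plus strand). The last 2 are windows with the E-box, capitals marking CACGTG, from a gene that rose (chr10:44268089-44268388, plus strand) and from one that did not pass the threshold (chr16:45158579-45158878, plus strand).
Sqstm1: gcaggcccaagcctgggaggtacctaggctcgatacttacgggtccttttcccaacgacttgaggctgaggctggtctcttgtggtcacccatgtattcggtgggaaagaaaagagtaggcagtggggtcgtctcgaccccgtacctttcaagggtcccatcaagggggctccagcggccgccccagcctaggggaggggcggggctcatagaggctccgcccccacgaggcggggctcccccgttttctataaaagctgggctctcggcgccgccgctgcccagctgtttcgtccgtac
Wipi1: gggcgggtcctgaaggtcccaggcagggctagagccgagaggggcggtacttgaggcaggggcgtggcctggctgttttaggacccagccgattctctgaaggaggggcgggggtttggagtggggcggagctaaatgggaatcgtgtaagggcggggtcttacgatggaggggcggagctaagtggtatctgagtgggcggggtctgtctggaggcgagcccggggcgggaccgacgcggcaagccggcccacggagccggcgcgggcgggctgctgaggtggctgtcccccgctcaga
Gabarapl1: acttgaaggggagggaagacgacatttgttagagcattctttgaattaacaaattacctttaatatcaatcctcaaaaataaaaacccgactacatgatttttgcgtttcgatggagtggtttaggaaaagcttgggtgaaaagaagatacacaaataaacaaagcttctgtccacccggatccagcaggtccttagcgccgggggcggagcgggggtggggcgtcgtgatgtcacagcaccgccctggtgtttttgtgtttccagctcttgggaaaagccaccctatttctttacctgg
Atg5: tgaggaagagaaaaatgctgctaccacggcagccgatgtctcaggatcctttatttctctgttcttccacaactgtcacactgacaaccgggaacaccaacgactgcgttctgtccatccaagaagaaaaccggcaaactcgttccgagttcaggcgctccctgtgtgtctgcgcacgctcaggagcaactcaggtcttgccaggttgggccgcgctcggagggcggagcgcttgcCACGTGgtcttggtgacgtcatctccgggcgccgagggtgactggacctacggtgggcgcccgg
Atg3: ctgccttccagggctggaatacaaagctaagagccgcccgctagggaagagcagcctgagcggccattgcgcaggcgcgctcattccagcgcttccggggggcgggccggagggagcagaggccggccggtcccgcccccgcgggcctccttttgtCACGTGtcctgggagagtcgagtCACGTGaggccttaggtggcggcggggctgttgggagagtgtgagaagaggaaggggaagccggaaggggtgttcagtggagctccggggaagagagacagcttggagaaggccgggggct
None of the first 3 holds CACGTG. The hexamer, which reads the same on both strands, occurred in 4 of the 30 genes with a window (13.3%: Atg14, Atg3, Atg5 and Atg7), against 8.09% of the 27025 genes in the table. It begins 94 and 71 bases before the start in Atg3, 14 bases before it in Atg5 and 132 bases before it in Atg7, and it spans the start of Atg14. Each position is counted from the RefSeq start of its window. Whether that is the first start of the gene, as for Atg7, was not checked. Of these 4 genes, Atg5 rose and the other three did not pass the threshold. The longer TCACGTGA, which contains the hexamer, was found in 1 gene, Atg3 (3.33%, against 1.12%), and the full palindromic CLEAR element of 10 bases, which contains both, in 0 (against 0.37%). A match is a description of the letters only.

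The ULK complex held the gene with the clearest change of its group. Ulk1, the kinase that initiates autophagosome formation, ranged from 18.6 to 21.1 RPKM in the 9 WT libraries (median 20.3) and from 23 to 26.5 RPKM in the 9 R6/1 libraries (median 25.1). Every R6/1 library was above every WT library. Its log2 difference was 0.30 ± 0.034 (SE; limma adjusted p = 4.62e-07), a mean 24% higher. Atg13, the adaptor that mTORC1 phosphorylates to hold the complex inactive, ranged from 23.9 to 26.8 RPKM in WT (median 24.7) and from 25.8 to 29.1 RPKM in R6/1 (median 27.1), with 5 R6/1 libraries above the highest WT library (log2 difference 0.13 ± 0.030, limma adjusted p = 0.000981). The paralogous kinase Ulk2 averaged 26.2 RPKM in WT and 26 RPKM in R6/1 (log2 difference -0.02, limma adjusted p = 0.767). Rb1cc1, which encodes the scaffold FIP200, ranged from 15.2 to 18.2 RPKM in WT and from 14.15 to 18.3 RPKM in R6/1, overlapping almost completely (-0.03 on the log2 scale, limma adjusted p = 0.737). Within each library the ratio of Ulk1 to Ulk2 in RPKM had a median of 0.769 in WT and 0.95 in R6/1, again without overlap. That ratio differed by 0.32 on the log2 scale (two-sided exact permutation test, p = 4.11e-05, the smallest that 48620 splits allow; 0.000144 after adjustment over 14 such pairs). Of the regulators above the complex, Mtor, the catalytic subunit of mTORC1, ranged from 14.95 to 16.9 RPKM in WT and from 15.1 to 18.8 RPKM in R6/1, with 7 R6/1 libraries above the highest WT library (0.12 on the log2 scale, limma adjusted p = 0.0193). Tfeb ranged from 2.23 to 3.41 RPKM in WT (median 2.94) and from 1.84 to 3.88 RPKM in R6/1 (median 2.84), and its groups overlapped throughout (log2 difference -0.07, limma adjusted p = 0.652).

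**Figure D2:**
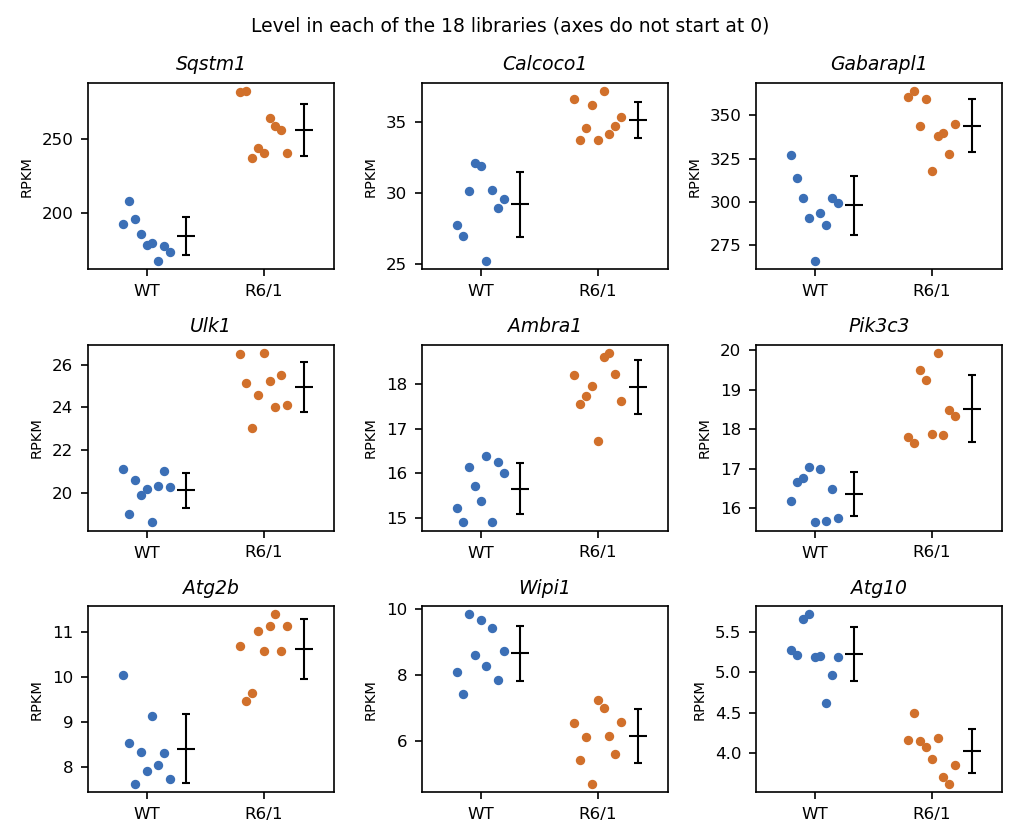
RPKM in each of the 18 libraries for 9 of the autophagy genes, WT beside R6/1, points being libraries and the marks beside them the mean with SD; the vertical axes do not start at 0. Sqstm1, Calcoco1, Ulk1, Ambra1 and Pik3c3 show no overlap between genotypes with R6/1 above, and Wipi1 and Atg10 none with R6/1 below.

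Of 6 genes of the Vps34 lipid kinase complex, 3 rose, 1 fell and 2 did not pass the threshold. Pik3c3, the catalytic subunit Vps34 itself, ranged from 15.6 to 17.05 RPKM in WT (median 16.5) and from 17.6 to 19.9 RPKM in R6/1 (median 18.3). All 9 R6/1 libraries were above all WT libraries (log2 difference 0.17 ± 0.032 SE, limma adjusted p = 1.67e-04). Its regulatory partner Pik3r4, also called Vps15, ranged from 9.29 to 11.8 RPKM in WT and from 11.1 to 13 RPKM in R6/1 (log2 difference 0.20, limma adjusted p = 8.75e-04). Ambra1, which ties Beclin 1 to the ULK complex, rose from 14.9–16.4 RPKM (median 15.7) to 16.7–18.7 RPKM (median 18), without overlap (log2 difference 0.19, limma adjusted p = 3.64e-05). Becn1, encoding Beclin 1, went the other way. It ranged from 37.2 to 42.2 RPKM in WT (median 38.65) and from 33.8 to 38.6 RPKM in R6/1 (median 35.5), with 8 of 9 R6/1 libraries below the lowest WT library (log2 difference -0.13, limma adjusted p = 0.00102). That call was lost under own-total scaling, where the difference was -0.06 (limma adjusted p = 0.0796). Exons of Becn1 share 3104 bases with Cntd1 on the opposite strand, whose mean was 0.479 RPKM in WT and 0.523 RPKM in R6/1. Atg14 and Uvrag, which bind Beclin 1 in separate complexes for autophagosome formation and for later trafficking, did not pass the threshold. Atg14 averaged 6.71 RPKM in WT and 7.11 RPKM in R6/1 (limma adjusted p = 0.135), and Uvrag 9.73 RPKM and 9.51 RPKM (limma adjusted p = 0.644).

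Of 5 genes that supply and shape the growing membrane, 2 rose and 1 fell. WIPI proteins read the lipid mark of Vps34, and the larger of their changes was the fall of Wipi1. It ranged from 7.44 to 9.84 RPKM in WT (median 8.62) and from 4.7 to 7.26 RPKM in R6/1 (median 6.16), a mean 28.9% lower with no overlap (log2 difference -0.47 ± 0.072 SE, limma adjusted p = 2.37e-05). Wipi2, which recruits the conjugation machinery, rose from 31–34.75 RPKM (median 32.3) to 34.5–40.4 RPKM (median 36.6), with 7 R6/1 libraries above the highest WT library (log2 difference 0.17, limma adjusted p = 4.92e-04). The ratio of Wipi1 to Wipi2 within a library fell from a median of 0.264 to 0.174, a difference of -0.63 on the log2 scale without overlap (two-sided exact permutation test, p = 4.11e-05, 0.000144 adjusted over 14 pairs). Atg2b, a bridge that carries lipid from the endoplasmic reticulum, rose from 7.61–10.05 RPKM (median 8.31) to 9.47–11.4 RPKM (median 10.7), with 7 R6/1 libraries above the highest WT library (log2 difference 0.32 ± 0.051 SE, limma adjusted p = 2.85e-05). Its paralog Atg2a averaged 10.4 RPKM in WT and 11.3 RPKM in R6/1 (log2 difference 0.11, limma adjusted p = 0.144). The ratio of Atg2a to Atg2b was lower in R6/1 by 0.22 on the log2 scale (exact permutation p = 0.0275, 0.0482 adjusted over 14 pairs). This call was lost in 14 of the 18 comparisons that left out a library, whose adjusted exact permutation p ran from 0.00658 to 0.0945. Atg9a, the membrane-spanning scramblase carried on seed vesicles, averaged 37.4 RPKM in WT and 39.8 RPKM in R6/1 (log2 difference 0.09, limma adjusted p = 0.175).

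Of the 10 conjugation and protease genes, 3 rose, 2 fell and 5 did not pass the threshold. Atg10, the E2-like enzyme that joins ATG12 to ATG5, was the clearest, ranging from 4.62 to 5.72 RPKM in WT and from 3.61 to 4.5 RPKM in R6/1. The groups did not overlap, and the R6/1 mean was 23.2% lower (log2 difference -0.34 ± 0.048 SE, limma adjusted p = 6.81e-06). Atg12, the ubiquitin-like protein that ATG10 transfers, fell from 24.4–33.8 RPKM (median 26.5) to 21.1–24.9 RPKM (median 23.3), with 7 R6/1 libraries below the lowest WT library (log2 difference -0.21, limma adjusted p = 0.00206). Its acceptor Atg5 rose, from 7.76–9.55 RPKM (median 8.67) to 8.76–10.6 RPKM (median 9.545), with 4 R6/1 libraries above the highest WT library (log2 difference 0.15, limma adjusted p = 0.0108). Atg7, the E1-like enzyme shared by both systems, averaged 7.89 RPKM in WT and 7.46 RPKM in R6/1 (limma adjusted p = 0.261). Its level is uncertain, since 48.5% of the 32-base words in its exons also occur elsewhere in the genome. Atg3, the E2-like enzyme for ATG8 proteins, averaged 16 RPKM in WT and 15.9 RPKM in R6/1 (limma adjusted p = 0.829). Of the ATG16 scaffolds that place the ligase on the membrane, Atg16l1 averaged 16.4 RPKM in WT and 16.9 RPKM in R6/1 (limma adjusted p = 0.334). Atg16l2 ranged from 3.23 to 8.29 RPKM within WT alone and from 5.32 to 7.92 RPKM in R6/1, so a difference of this gene was not detectable against its spread. The ATG4 proteases trim ATG8 proteins before conjugation and release them afterwards. Atg4b rose from a mean of 19.2 RPKM to 21 RPKM (log2 difference 0.12, limma adjusted p = 0.0045) and Atg4c from 13.3 RPKM to 14.6 RPKM (0.13, limma adjusted p = 0.0130), while Atg4d went from 5.81 RPKM to 6.27 RPKM (0.10, limma adjusted p = 0.0772). Ratios among the 3 proteases did not pass the threshold (Atg4b to Atg4c, adjusted exact permutation p = 0.933; Atg4b to Atg4d, 0.765). Exons of Atg4d share 791 bases with Kri1 on the opposite strand, whose mean was 7.04 RPKM in WT and 6.4 RPKM in R6/1. Whether counting used strand is not given, so the level of Atg4d and its ratio are uncertain to that extent.

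**Figure D3:**
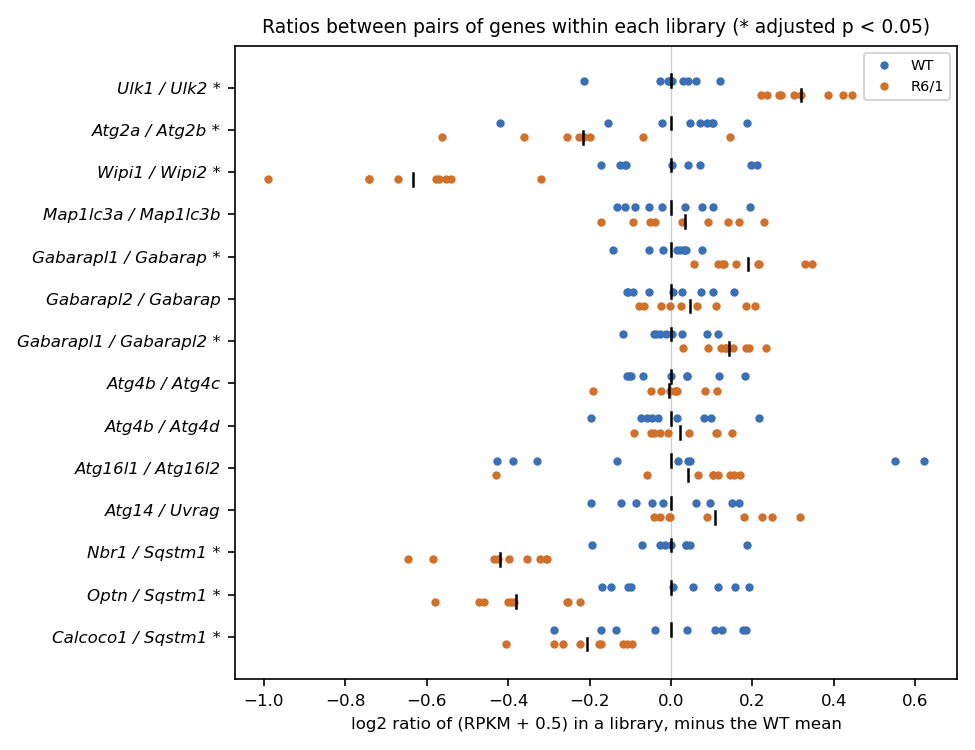
Log2 ratio of RPKM + 0.5 between paralogs or related genes within each library, minus the WT mean, for the 14 pairs compared; points are libraries, black bars the mean of each genotype, and an asterisk an adjusted exact permutation p under 0.05. Wipi1 to Wipi2 shows the largest shift, -0.63. Ulk1 to Ulk2, Atg2a to Atg2b, Gabarapl1 to Gabarap and to Gabarapl2, and the receptor ratios to Sqstm1 also passed the threshold. The ATG4 ratios did not. Some ratios that passed, such as Calcoco1 to Sqstm1, still overlap between genotypes.

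The ATG8 family was the most abundant group, and of its 5 genes 1 rose, 1 fell and 3 did not pass the threshold. Gabarapl1, a GABARAP-family protein known to be abundant in neurons, ranged from 266 to 327.3 RPKM in WT (median 299.7) and from 317.8 to 363.8 RPKM in R6/1 (median 344). All but 1 of the R6/1 libraries were above the highest WT library, and the mean rose from 298.1 ± 17.2 to 344.1 ± 15.5 RPKM (SD; log2 difference 0.21 ± 0.038 SE, limma adjusted p = 1.54e-04). Map1lc3b, encoding LC3B, the marker most often used to count autophagosomes, fell from 105.1–129.8 RPKM (median 112.4) to 93.9–112.4 RPKM (median 99.6), with 6 R6/1 libraries below the lowest WT library (log2 difference -0.17, limma adjusted p = 0.00304). Under own-total scaling, the difference was -0.09 and missed the threshold (limma adjusted p = 0.0534). Of the 32-base words in the exons of Map1lc3b, 47.4% also occur elsewhere in the genome, as do 36.9% of those of Gabarapl2, and for Gabarapl1 this share was 0. How such reads were counted is not given in the sources used here, so the levels of Map1lc3b and Gabarapl2, and the shares and ratios that use them, are uncertain to that extent. Map1lc3a, encoding LC3A, ranged from 82.9 to 105 RPKM in WT (median 91.7) and from 70.8 to 101.9 RPKM in R6/1 (median 87.7), with wide overlap (log2 difference -0.13, limma adjusted p = 0.0959). Gabarap averaged 101.1 RPKM in WT and 102.6 RPKM in R6/1 (limma adjusted p = 0.717), and Gabarapl2 136.4 RPKM and 142.8 RPKM (limma adjusted p = 0.178). As a share of the 5 summed, Gabarapl1 took 38.7% to 40.8% in the WT libraries and 42.5% to 46% in the R6/1 libraries. The mean share of Map1lc3b went from 15.4% to 13.1%, and that of Map1lc3a from 12.5% to 11%, while Gabarap (13.6% and 13.2%) and Gabarapl2 (18.4% in both) stayed close. The sum itself averaged 743 RPKM in WT and 776.3 RPKM in R6/1. The ratio of Gabarapl1 to Gabarap was higher in R6/1 by 0.19 on the log2 scale (exact permutation p = 8.23e-05, 0.00023 adjusted over 14 pairs) and that of Gabarapl1 to Gabarapl2 by 0.14 (adjusted exact permutation p = 0.00096). The ratio of Map1lc3a to Map1lc3b differed by 0.03 (adjusted exact permutation p = 0.716).

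**Figure D4:**
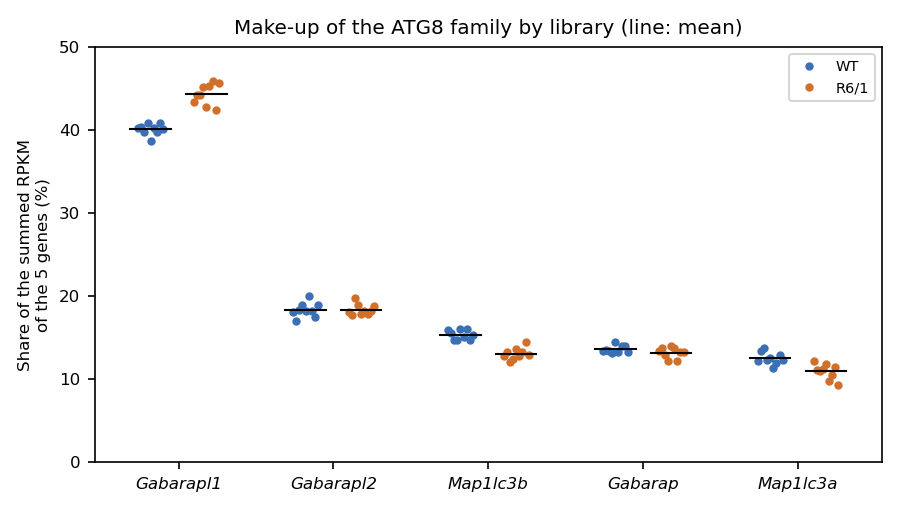
Share of each ATG8 gene in the summed RPKM of the 5, in percent, for every library of each genotype. Gabarapl1 spans 38.7% to 40.8% in WT libraries and 42.5% to 46% in R6/1 libraries, and Map1lc3b is lower in R6/1.

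Of the 4 cargo receptors 2 rose, and Sqstm1 rose by more than any other of the 36 genes. Sqstm1 encodes p62, which binds ubiquitinated protein and ATG8 proteins together and is itself degraded by autophagy. It ranged from 167.5 to 208.1 RPKM in WT (median 179.8) and from 236.7 to 281.7 RPKM in R6/1 (median 255.8). The highest WT library was below the lowest R6/1 library, and the mean rose by 38.8%, from 184.2 ± 12.6 to 255.8 ± 17.3 RPKM (SD; log2 difference 0.47 ± 0.045 SE, limma adjusted p = 6.13e-08). Calcoco1, a receptor for parts of the endoplasmic reticulum and Golgi, ranged from 25.2 to 32.1 RPKM in WT (median 29.6) and from 33.7 to 37.1 RPKM in R6/1 (median 34.7), also without overlap (log2 difference 0.27 ± 0.042 SE, limma adjusted p = 2.72e-05). Nbr1, which binds p62 in cargo condensates, averaged 38.6 RPKM in WT and 40.05 RPKM in R6/1 (log2 difference 0.05, limma adjusted p = 0.132). Optn, encoding optineurin, a receptor for mitochondria and aggregates, ranged from 6.94 to 8.55 RPKM in WT and from 7.71 to 8.53 RPKM in R6/1, inside the WT maximum (log2 difference 0.09, limma adjusted p = 0.0682). The rise of Sqstm1 exceeded those of the other receptors. The ratio to Sqstm1 within a library was lower in R6/1 by 0.42 on the log2 scale for Nbr1 and by 0.38 for Optn (0.000144 each), and by 0.21 for Calcoco1 (0.0151; two-sided exact permutation tests, adjusted over 14 pairs). These ratios all share Sqstm1, so they are not independent of its rise or of each other. Exons of Sqstm1 share 580 bases with the gene 3010026O09Rik on the opposite strand, and whether counting used strand is not given in the sources used here.

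Genes elsewhere in the pathway were counted from 5 lists holding 117 genes, all tested. Of these, 41 rose, 14 fell and 62 did not pass the threshold, which is 47% called, near the background of 48.3%. By direction, 24.8% of all genes tested were higher and 23.5% lower. Under own-total scaling, 65 were higher and 4 lower. Of 15 other machinery genes, 5 rose and 3 fell; the rises included Rubcn, an inhibitor of the Vps34 complex (15.4 to 19.7 RPKM, log2 difference 0.34, limma adjusted p = 2.31e-05), and Wdr45b, a WIPI-family protein (27.1 to 33.5 RPKM, limma adjusted p = 7.19e-06), and the falls included Nrbf2, a subunit of the Atg14-containing complex (12 to 10.15 RPKM, log2 difference -0.24, limma adjusted p = 0.00142). Of 19 other receptors and selective factors, 7 rose and 1 fell. They included Wdfy3, which encodes the aggregate-clearing scaffold ALFY (20.2 to 25.1 RPKM, log2 difference 0.30, limma adjusted p = 4.42e-04), and Tbk1, the kinase that phosphorylates p62 and optineurin (15 to 17.3 RPKM, log2 difference 0.20, limma adjusted p = 1.86e-04). Pink1, the kinase that marks damaged mitochondria, rose as well (139 to 170.8 RPKM, log2 difference 0.29, limma adjusted p = 0.0021). Fusion of autophagosomes with lysosomes uses the HOPS tethering complex, and of 15 fusion genes 5 rose and 1 fell. Its subunit Vps33a rose from 26.2 to 36.3 RPKM (log2 difference 0.47, limma adjusted p = 2.37e-08), Vps11 from 23.8 to 31.1 RPKM (0.38, limma adjusted p = 1.05e-06) and Vps18 from 13.5 to 16.3 RPKM (0.26, limma adjusted p = 1.18e-04).

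In the lysosome list 11 of 32 genes rose (34.4%) and 4 fell (12.5%), against 24.8% and 23.5% of all genes tested. The cathepsin gene Ctsl rose from 23.4 to 31.5 RPKM (log2 difference 0.42, limma adjusted p = 4.24e-08), the progranulin gene Grn from 26 to 33.9 RPKM (0.39, limma adjusted p = 1.20e-05), and Atp6ap1, an accessory subunit of the proton pump, from 162.1 to 209.4 RPKM (0.37, limma adjusted p = 5.51e-07). The genes that fell were Naglu, Neu1, Tpp1 and Cd63. Of 36 genes of mTORC1, AMPK and TFE regulation, 13 rose (36.1%) and 5 fell (13.9%). Rragb and Rragc, RAG GTPases that bring mTORC1 to the lysosome, rose from 33.7 to 43.1 RPKM (limma adjusted p = 4.29e-06) and from 27.8 to 35.1 RPKM (limma adjusted p = 4.31e-07), while Rragd was among the genes that fell. Prkag2, a regulatory subunit of AMPK, fell from 29 to 20.8 RPKM (log2 difference -0.47, limma adjusted p = 2.10e-07). Other AMPK genes rose: Prkaa1 (0.24, limma adjusted p = 4.26e-04), Prkaa2 (0.20, limma adjusted p = 0.016) and Prkag1 (0.16, limma adjusted p = 0.0021). Prkab1 and Prkab2 did not pass the threshold. Every list median was above 0, from 0.04 in the other machinery and other receptors to 0.08 in the lysosome list, against 0.0036 for all genes tested. That background moves with the processing. It was 0.0167 among genes averaging 2 RPKM or more and 0.069 under own-total scaling, and list medians under these settings are not given.

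**Figure D5:**
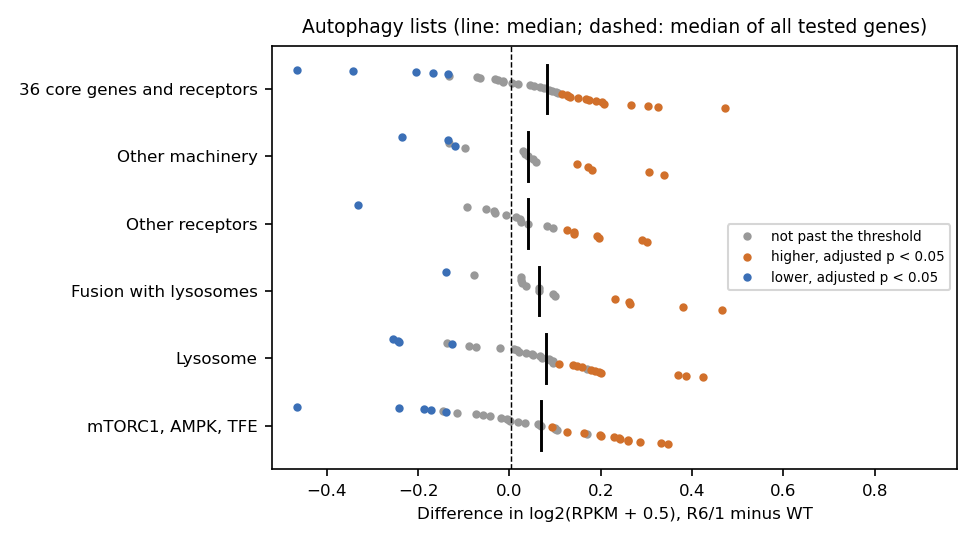
Difference in log2(RPKM + 0.5), R6/1 minus WT, of each gene in the 36 and in the 5 other autophagy lists, with the median of each list as a bar and that of all tested genes as a dashed line. List medians lie between 0.04 and 0.08, and single genes reach 0.47 on either side.

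Lamin-associated domains, stretches of chromatin at the nuclear envelope, were deposited by the authors as 1 domain list per genotype on NCBIM37 (mm9), so overlaps with them have no replicate check. The starts of 3 of the 36 genes, Rb1cc1, Pik3c3 and Gabarapl1, lay in a WT domain, and those of 2, Rb1cc1 and Pik3c3, in an R6/1 domain. For comparison, 13% of the 12332 tested protein-coding genes with a position started in a WT domain and 8.1% in an R6/1 domain. Gabarapl1, at chr6:129483218-129492349 on the plus strand, started 649.2 kb inside a WT domain that ran from 128834001 to 133866000. The nearest R6/1 domain began at 129500001, 16.8 kb beyond the start. Sqstm1 (chr11:50012868-50024329, minus strand) and Wipi1 (chr11:109434645-109473281, minus strand), the genes with the largest rise and the largest fall in RNA, and Ulk1 (chr5:111213507-111239116, minus strand) started outside the domains of both genotypes.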

How the data were processed

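RNA libraries from 9 WT and 9 R6/1 hippocampi, grouped by their titles, were compared. The authors deposited RPKM per gene and library, and a table of DESeq2 results with a mean normalized count as signal, a log2 fold change, a Wald score and p-values, per the file headers. The lamin B1 domain lists the authors deposited carry a score for each domain. The authors' tools, per the submitters' processing notes, were TopHat, Bowtie and DESeq2, on mm9. Read totals were recovered from the RPKM steps: 99.87% to 99.91% of values came out whole within 0.05 read. From the RPKM, log2(RPKM + 0.5) was fitted for genes averaging 0.5 RPKM or more with limma 3.58.1 (trend; Benjamini-Hochberg adjusted p under 0.05), and tested on simulated data first. Paralog ratios were compared by exact permutation tests over 48620 splits, adjusted over 14 pairs. No background share over other pairs of genes was computed. By rule all 36 genes were named, with library ranges for called genes without overlap and for the 3 largest differences in each of 7 role groups; each pathway list gave its 3 largest called changes at a mean of 1 RPKM or more. The range of Becn1 and Atg16l2 and the names Naglu, Neu1, Tpp1, Cd63 and Rragd were added after their values were seen. So were the HOPS subunits Vps16, Vps39 and Vps41, and the AMPK genes other than Prkag2. The members and lists were chosen with earlier results of these data known. Alternatives covered pseudocount, filter, scaling, weights, covariates, replicate block and leaving out each library. Positions came from GENCODE on NCBIM37. Domain coordinates and RefSeq promoter coordinates (GRCm38.p6) are on different builds and were not joined. ATAC data were not analysed here.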

Additional observations from a re-analysis of the deposited data

Results flagged for a closer look

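Of 132 groups of 9 libraries examined for a library far from the rest, 9 had one, against about 6.6 that chance gives at 1 in 20. Among the 36 genes, Atg13 was highest in WT replicate 3 at 26.8 RPKM (next library 25.1), and Atg12 in WT replicate 1 at 33.8 RPKM (next 27.9). Atg4b was also highest in WT replicate 1, at 21.3 RPKM (next 19.6). Atg16l2 was highest in R6/1 replicate 6 at 7.92 RPKM (next 6.26), where the ratio of Atg16l1 to Atg16l2 was lowest at 2.03 (next 2.67). The ratio of Ulk1 to Ulk2 was lowest in WT replicate 6 at 0.659 (next 0.752). In the other lists, Wdr45b stood at 31.9 RPKM in WT replicate 1 (next 27.5), Grn at 33.1 RPKM in WT replicate 5 (next 26.3) and Nrbf2 at 8.03 RPKM in R6/1 replicate 5, the lowest (next 9.83). The calls of Atg13, Atg12, Atg4b, Wdr45b, Grn and Nrbf2 held without each of these libraries.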

How the results depend on the processing

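Of the 19 called autophagy genes, 17 passed the threshold under all 33 settings; the exceptions, Becn1 and Map1lc3b, missed it under own-total scaling. That scaling gave 23 higher and 3 lower among the 36 genes and 65 higher and 4 lower among the 117 other pathway genes. Quantile normalization gave 19 and 5 among the 36. Over all genes it called 7296, of which 58.3% were higher. Leaving out each library in turn gave 14 to 16 higher and 5 to 6 lower, with 36 to 41 and 11 to 14 in the other lists and 7 to 8 paralog pairs past the threshold. Over all genes, these fits gave 3422 to 3673 higher and 3236 to 3503 lower. Single libraries decided no call among the 19, but Map1lc3a passed without R6/1 replicate 1 (-0.17, limma adjusted p = 0.0310), Atg9a (0.12, 0.0238) and Atg4d (0.12, 0.0493) without R6/1 replicate 3, Atg4d without WT replicate 8 (0.0440), Atg2a without R6/1 replicate 4 (0.14, 0.0314) and Optn without WT replicate 5 (0.11, 0.0279). Replicate numbers did not clearly pair the libraries. Same-numbered correlations ran from -0.05 to 0.24, with 3 of 9 over 0.1, and 2 of 9 WT libraries correlated best with their own number. With a replicate block 15 were higher, 6 lower and 7 paralog pairs passed, Atg2a to Atg2b missing the threshold (adjusted exact permutation p = 0.130). The limma fit with that block called 7133 of all 14446 genes, 51.4% of them higher. Signs changed only for values that were not called. Atg16l2 was -0.0075 with Xist as a covariate, -0.085 with library weights, -0.0042 with voom on recovered reads and -0.037 in the authors' deposited table. Scaling to own totals turned Ulk2 to 0.057, Rb1cc1 to 0.046, Uvrag to 0.0375 and Atg3 to 0.058, and quantile normalization turned Ulk2 to 0.0049. Over the fits without a library, Atg16l2 ran from -0.091 to 0.064, Rb1cc1 from -0.045 to 0.0042, Atg3 from -0.030 to 0.0034, and the log2 ratios of Atg4b to Atg4c from -0.018 to 0.0196, Atg16l1 to Atg16l2 from -0.012 to 0.12 and Atg4b to Atg4d from -0.0024 to 0.049. The cause of these moves was not tested. The promoter search depended on the letters chosen: TCACGTGA gave 1 gene and the full CLEAR element 0, against 4 for CACGTG. Tfeb, Atg10 and Atg16l2 had the smallest read counts of the 36 genes, and the effect of depth on their results was not tested.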

Other observations

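A pair of motifs of other regulators of autophagy genes was searched in the same promoter windows, chosen after seeing the data. TGACNNNGC, the core of the antioxidant response element bound by NRF2, was found on either strand in 3 of the 30 genes with a window (10%: Atg13, Map1lc3b and Ulk2), against 14% of all genes in the table. Sqstm1, a known NRF2 target, had no match in its window. GTAAACA, a forkhead motif bound by FOXO factors, was found in 0 of the 30, against 4.05%. The absence of these letters from a window of 300 bases says nothing about binding elsewhere.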
